A study of Mus musculus with 6 samples.

Results

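The 10 circadian clock genes described here are Arntl, Clock, Npas2, Per1, Per2, Per3, Nr1d1, Nr1d2, Dbp and Tef. They were chosen by gene name from a table of 46983 mouse genes, and each name matched a single entry, so 10 of 46983 genes are members. Their RNA was measured in the aortic valve of wild type C57BL/6J mice, with 3 libraries at postnatal day 2 (PND2) and 3 libraries at 4 months. Each library came from the pooled valves of 5 to 6 animals, so the spread between libraries is a spread between pools and not between single mice. No treatment or mutation separates the groups, and the time of day at which valves were taken is not given in the sources used here. The study's methods describe housing under a light/dark cycle. They describe carbon dioxide for all animals, then decapitation of pups and cervical dislocation of adults. Age, this second killing step and collection time therefore cannot be told apart in any comparison of the ages that follows.

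The circadian clock is a transcriptional loop that runs in most cell types, those of heart and vessel wall included. BMAL1, the protein of Arntl, pairs with CLOCK or NPAS2, binds E-boxes, and switches on the period, cryptochrome, REV-ERB and PAR bZIP genes. The period and cryptochrome proteins then block that pair, REV-ERB receptors repress Arntl and Npas2 through ROR elements, and DBP and TEF pass the rhythm on through D-boxes. Transcripts of these genes rise and fall over the day, Arntl and Npas2 in a phase opposite to the period genes and Dbp.

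Promoter windows of RefSeq (build GRCm38.p6, 250 bases before to 50 bases after an annotated start) were found for 9 of the 10 genes, in 14 windows, and none was found for Per2. They were searched on both strands for the E-box CACGTG, its variant CACGTT, the D-box TTANGTAA and the consensus of the ROR element. Among all 32851 windows of the same length, 7.15% hold the E-box, 4.68% the variant, 2.32% the D-box and 0.384% the ROR element. Matches to different motifs shared 0 bases in the members' windows. Of the 9 genes, 2 held the E-box, in 3 of the 14 windows, and 1 each held the variant, the D-box and the ROR element. No motif was found in any window of Clock, Npas2, Nr1d2 or Dbp, or in the other window of Per1 or of Arntl. The 4 windows below are shown because together they hold the 4 motifs searched, 1 kind in each. The windows, 5′ to 3′ on the strand of the gene, carry the matched motif in capitals: an E-box in Per1 (chr11:69098699-69098998, plus strand), the E-box variant, read on its other strand, in Nr1d1 (chr11:98775328-98775627, minus strand), a pair of D-boxes in Per3 (chr4:151044616-151044915, minus strand) and a ROR element in Arntl (chr7:113207261-113207560, plus strand).
Per1: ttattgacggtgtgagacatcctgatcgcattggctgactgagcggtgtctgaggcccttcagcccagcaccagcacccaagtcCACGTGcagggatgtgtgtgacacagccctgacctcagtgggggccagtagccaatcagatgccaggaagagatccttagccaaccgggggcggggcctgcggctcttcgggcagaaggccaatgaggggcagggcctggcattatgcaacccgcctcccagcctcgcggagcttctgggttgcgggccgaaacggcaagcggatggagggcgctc
Nr1d1: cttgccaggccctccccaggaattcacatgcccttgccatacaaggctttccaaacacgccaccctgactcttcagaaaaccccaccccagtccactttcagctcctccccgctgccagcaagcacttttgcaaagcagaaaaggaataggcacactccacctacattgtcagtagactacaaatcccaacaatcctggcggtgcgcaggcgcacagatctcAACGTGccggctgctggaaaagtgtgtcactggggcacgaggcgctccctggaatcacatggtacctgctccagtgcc
Per3: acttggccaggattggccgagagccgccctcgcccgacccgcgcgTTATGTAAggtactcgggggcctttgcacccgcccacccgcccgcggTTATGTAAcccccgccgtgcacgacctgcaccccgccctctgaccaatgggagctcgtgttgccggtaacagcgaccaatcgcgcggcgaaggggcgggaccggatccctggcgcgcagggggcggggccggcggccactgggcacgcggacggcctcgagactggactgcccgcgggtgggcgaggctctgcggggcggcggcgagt
Arntl: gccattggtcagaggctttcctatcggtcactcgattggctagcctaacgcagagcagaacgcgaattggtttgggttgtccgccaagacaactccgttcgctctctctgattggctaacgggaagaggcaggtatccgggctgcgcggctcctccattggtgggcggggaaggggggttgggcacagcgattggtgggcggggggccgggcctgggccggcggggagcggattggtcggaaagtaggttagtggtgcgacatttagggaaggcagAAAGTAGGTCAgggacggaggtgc
The E-box of Per1 begins 166 bases before the start, the variant of Nr1d1 28 bases before it, and the D-boxes of Per3 205 and 158 bases before it. The Arntl match lies after the start, with its first letter at position 277 of the window. Tef had an E-box in each of 2 windows, 127 and 138 bases before the starts. The matched letters are a description of these windows and not evidence of binding.

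Library totals ran from 23810507 to 38994657 reads, and whole reads could be recovered for 100% of the values above 0. The lowest count behind a value was 710 reads (Dbp) and the highest 13734 reads (Nr1d1). Values are RPKM, reads scaled by exonic length and by the library total, so levels can be compared between genes per length. The 7 valve interstitial markers summed to 5588 to 6081 RPKM at PND2 and 6866 to 8639 RPKM at 4 months, with 0 of the 7 absent. Their presence does not by itself tell valve from other tissue. Other cell types also differed with age: the 8 cardiomyocyte markers summed to 13100 to 16160 RPKM at PND2 and 5289 to 10360 RPKM at 4 months, and the 5 smooth muscle markers to 7130 to 8227 and 16360 to 27380 RPKM. The 5 endothelial markers summed to 308.9 to 417 RPKM at PND2 and 170 to 179 RPKM at 4 months. The 7 adipocyte markers summed to 63.8 to 147 and 326 to 1427 RPKM, with 3 of them at 0 throughout PND2. Nearly all of the adipocyte sum at PND2 was Fabp4, at 147.3, 63.67 and 77.92 RPKM in replicates 1 to 3. Fabp4 was at 52.5 to 183 RPKM at 4 months, so its ages overlapped. The other adipocyte markers were each at 0.198 RPKM or less in every PND2 library. At 4 months they ran from 1.23 RPKM (Lep) to 955 RPKM (Cfd). The 5 macrophage markers summed to 129 to 161 and 276 to 348 RPKM. The part of these cell types in the clock gene differences was not tested, and in whole tissue fewer cells of a type and less RNA per cell cannot be told apart.

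Of the 10 members, 6 rose from PND2 to 4 months, 0 fell and 4 did not pass the test (limma on log2(RPKM + 0.1), Benjamini-Hochberg adjusted p under 0.05 over the 25903 genes tested). Arntl, Clock, Npas2, Nr1d1, Nr1d2 and Dbp were the 6. Over all genes tested 35.8% passed in either direction, 14.7% higher and 21.1% lower at 4 months. With each library scaled by its median log2 ratio, the counts over all genes were 4601 higher and 4129 lower in place of 3810 and 5463, and the same 6 members rose. Over the members the log2 fold changes had a median of 1.07, and over all genes tested of -0.14. PND2 and 4 months did not overlap for the same 6 members, as for 50.0% of all genes tested. Requiring a fold over 2 as well left 5 members, without Clock, where 8.72% of all genes tested were higher at 4 months by that rule.

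**Figure D1:**
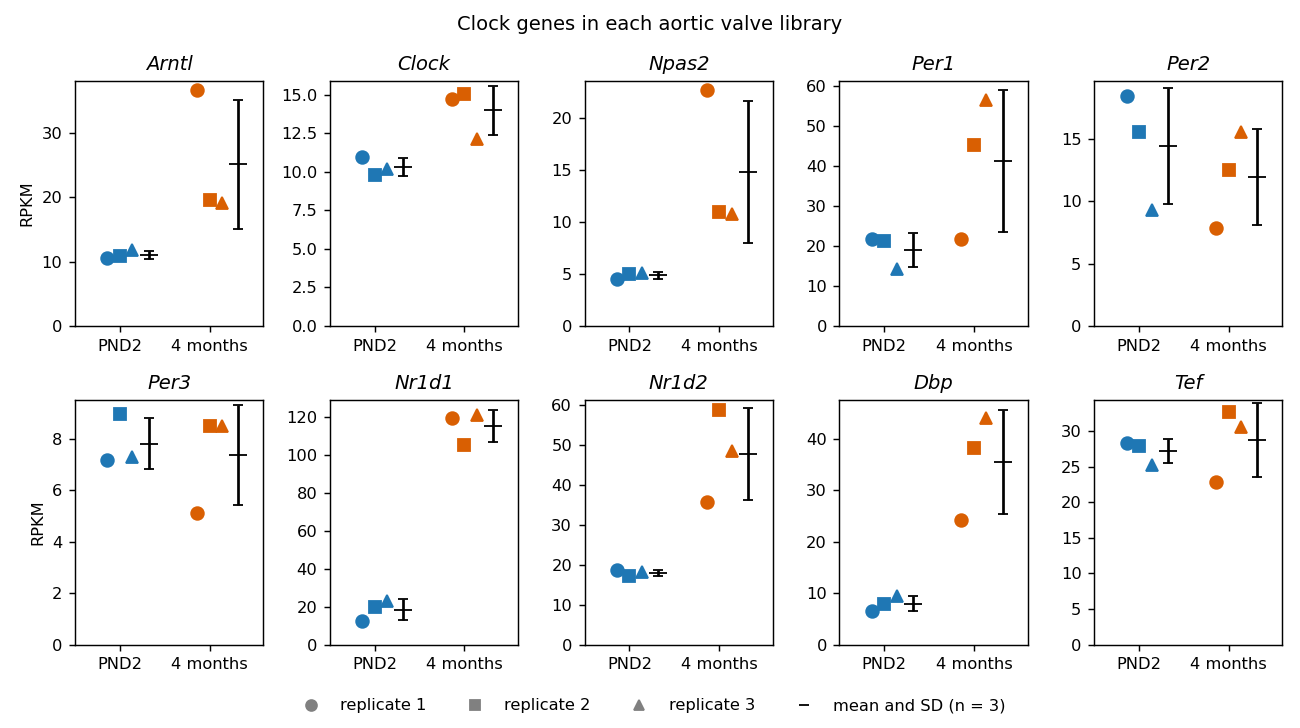
RPKM (y axis, from 0) of the 10 clock genes in each library at PND2 (blue) and 4 months (orange), with the symbol giving the replicate and the bar the mean and SD of the 3 libraries. Nr1d1 sits between 12.5 and 22.9 RPKM at PND2 and between 105.5 and 121 RPKM at 4 months, while the period genes and Tef overlap between the ages and replicate 1 of 4 months lies away from the other libraries in several panels.

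Among the activators, Arntl (chromosome 7 of mm10 from 113207465 to 113314122, plus strand) encodes BMAL1, the partner without which the loop stops. Arntl was at 10.53, 10.8 and 11.8 RPKM in PND2 replicates 1 to 3 and at 36.8, 19.5 and 19.1 RPKM in replicates 1 to 3 of 4 months. All libraries of 4 months lay above all those of PND2, and the first of them lay far above the other two. Arntl rose by 1.11 ± 0.25 on the log2 scale (SE, limma adjusted p = 0.0125), and without 4 months replicate 1 it was 0.80 with a limma adjusted p of 0.0059.

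Npas2 (chromosome 1 from 39193731 to 39363236, plus strand), which can take the place of CLOCK beside BMAL1, followed the same order. It was at 4.52, 5.01 and 5.11 RPKM at PND2 and at 22.7, 10.98 and 10.8 RPKM at 4 months. The ages did not overlap, and again the first library of 4 months was the highest. Npas2 rose by 1.49 ± 0.29 on the log2 scale (SE, limma adjusted p = 0.00671), and without that library by 1.14 (limma adjusted p = 0.00386).

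Clock (chromosome 5 from 76209868 to 76304792, minus strand) encodes the third activator, and its transcript is known for a weak daily rhythm. It was at 10.96, 9.80 and 10.2 RPKM at PND2 and at 14.8, 15.1 and 12.1 RPKM at 4 months. The ages were close but did not overlap, and no library stood apart. Its log2 fold change of 0.43 ± 0.13 (SE) had a limma adjusted p of 0.035. The exons were not uniform: of 47 measured, some sharing bases, 37 were higher at 4 months and 10 lower. Their median log2 difference was 0.22, with a range of -1.35 to 1.04. The longest, a last exon of 7011 bases, was at 0.53, so the gene value rests largely on that end. For the whole gene, leaving out PND2 replicate 2 or 3, or 4 months replicate 1 or 2, gave log2 fold changes of 0.37 to 0.42. Their limma adjusted p ran from 0.0974 to 0.107, so the call was lost while the estimate changed little. Calls over all genes also fell when 1 library was left out, from 9273 to between 6447 and 8688.

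The ratio of Npas2 to Clock, which does not depend on the library total, was 0.413, 0.512 and 0.501 at PND2 and 1.54, 0.728 and 0.886 at 4 months. Npas2 was thus the lower of the pair in 5 libraries and the higher in 4 months replicate 1. The log2 ratio was 1.08 higher at 4 months (exact permutation test, 2-sided, p = 0.1, n = 3 per age, adjusted p = 0.129 over 9 ratios). With 3 libraries against 3, 0.1 is the smallest p this test can give, so none of the 9 ratios could pass.

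The period genes encode the repressors PER1, PER2 and PER3, and none of their transcripts passed the test. Per1 (chromosome 11 from 69095217 to 69109960, plus strand) was at 21.7, 21.3 and 14.1 RPKM at PND2 and at 21.7, 45.3 and 56.5 RPKM at 4 months. Replicates 2 and 3 of 4 months lay above all PND2 libraries, while replicate 1 was level with the highest of PND2. The log2 fold change was 1.03 (95% confidence interval 0.20 to 1.85) with a limma adjusted p of 0.0577. Without 4 months replicate 1 it was 1.43 with a limma adjusted p of 0.0058. With all libraries kept, Per1 also passed under voom on recovered reads and under a minimum of 1 RPKM. The call thus turned on this library and on the settings.

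Per2 (chromosome 1 from 91415982 to 91459324, minus strand) was at 18.4, 15.5 and 9.30 RPKM at PND2 and at 7.86, 12.5 and 15.5 RPKM at 4 months. Both ages spanned nearly the same range. The log2 fold change of -0.27 had a 95% confidence interval of -1.01 to 0.48 (limma adjusted p = 0.558), so folds from 0.495 to 1.40 lay within it. Without 4 months replicate 1 the log2 fold change was 0.01.

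Per3 (chromosome 4 from 151003652 to 151044665, minus strand, inside the span of Camta1 on the same strand) was at 7.16, 8.95 and 7.31 RPKM at PND2. At 4 months it was at 5.11, 8.49 and 8.49 RPKM. The ages overlapped, with 4 months replicate 1 the lowest of all 6 libraries. The log2 fold change was -0.11 (95% confidence interval -0.64 to 0.41, limma adjusted p = 0.732) and turned to 0.13 without that library. Camta1 was also lowest in 4 months replicate 1, at 4.10 RPKM against 5.14 to 7.97 RPKM in the other libraries.

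Within a library, the ratio of Per1 to Per2 was 1.18, 1.37 and 1.52 at PND2 and 2.76, 3.63 and 3.64 at 4 months. Here replicate 1 of 4 months grouped with its own age. The log2 ratio differed by 1.30 (exact permutation p = 0.1, n = 3 per age, adjusted p = 0.129). The levels of Per1 and Per2 moved together within each age, and their ratio varied by 1.29 times at PND2 and 1.32 times at 4 months.

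The REV-ERB receptors, which repress Arntl, held the member with the highest fold change. Nr1d1 (chromosome 11 from 98767932 to 98775333, minus strand) encodes REV-ERB alpha. It was at 12.5, 20.0 and 22.9 RPKM at PND2 and at 119.5, 105.5 and 121 RPKM at 4 months. The lowest library of 4 months was far above the highest of PND2, and replicate 1 of 4 months did not stand apart. Nr1d1 rose by 2.68 ± 0.21 on the log2 scale (SE, limma adjusted p = 2.09e-04), 6.25-fold between the means of 18.5 ± 5.38 (SD, n = 3) and 115 ± 8.56 RPKM.

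The last exon of Nr1d1 (98767932 to 98768419) overlaps Thra, a thyroid hormone receptor gene on the opposite strand, and the sources used here do not say if strand was used in counting. Thra was at 70.2 to 102 RPKM at PND2 and 98.7 to 139 RPKM at 4 months. That exon had 49.3, 79.8 and 81.5 RPKM at PND2, where the other exons had 1.73 to 19.0 RPKM, so the level per length at PND2 was highest where the genes overlap. At 4 months it had 191, 134 and 175 RPKM against 48.9 to 159 RPKM in the other exons. Counted over its 7 non-redundant exon stretches free of other genes, Nr1d1 had a mean of 8.70 ± 3.17 RPKM at PND2 and 106 ± 5.42 RPKM at 4 months (SD, n = 3). The fold between means on those exons was 12.1, against 6.25 on the whole gene.

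**Figure D2:**
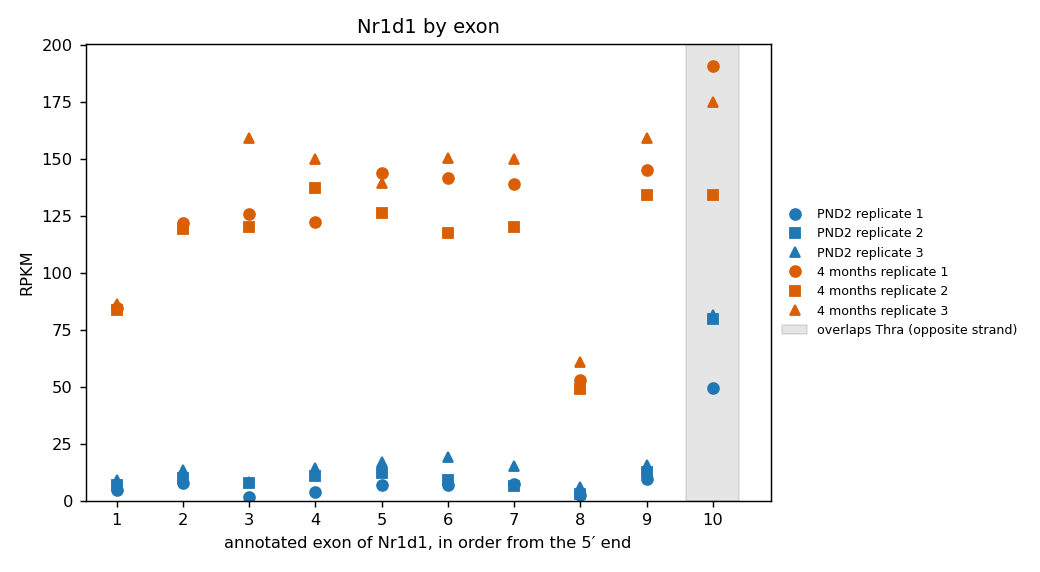
RPKM (y axis, from 0) of the 10 annotated exons of Nr1d1 in order from the 5′ end (x axis), for each library at PND2 (blue) and 4 months (orange). Exons 5 and 6, and 7 and 8, share bases. In exons 1 to 9 the PND2 libraries lie at 1.73 to 19.0 RPKM, and in exon 10, shaded where it overlaps Thra, at 49.3 to 81.5 RPKM.

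Nr1d2 (chromosome 14 from 18204054 to 18239127, minus strand) encodes REV-ERB beta, and no other gene overlaps its exons. It was at 18.6, 17.0 and 18.2 RPKM at PND2 and at 35.7, 58.8 and 48.4 RPKM at 4 months. The PND2 libraries were tight, the ages did not overlap, and replicate 1 was the lowest at 4 months. Nr1d2 rose by 1.38 ± 0.18 on the log2 scale (SE, limma adjusted p = 0.00133), and all of its 13 measured exons were higher at 4 months. The ratio of Nr1d1 to Nr1d2 was 0.671, 1.17 and 1.26 at PND2 and 3.35, 1.80 and 2.50 at 4 months, a log2 difference of 1.31 (exact permutation p = 0.1, n = 3 per age). On exons that overlap no other gene, a setting added after the values were seen, it was 0.298, 0.509 and 0.654 at PND2 and 2.97, 1.70 and 2.29 at 4 months, a log2 difference of 2.29. Nr1d1 was then below Nr1d2 in all 3 PND2 libraries, while on all exons it was above in replicates 2 and 3.

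The ratio of Arntl to Nr1d1, an activator over its repressor, was 0.843, 0.543 and 0.514 at PND2. It was 0.308, 0.185 and 0.158 at 4 months, below every PND2 library. Both genes rose, and Nr1d1 had the higher fold change. The log2 ratio was 1.57 lower at 4 months, written as a difference of -1.57 (exact permutation p = 0.1, n = 3 per age). On exons that overlap no other gene the ratio was 1.90, 1.25 and 0.992 at PND2 and 0.347, 0.195 and 0.173 at 4 months, a log2 difference of -2.55. Arntl was then above Nr1d1 in PND2 replicates 1 and 2, while on all exons it was below in every library.

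Dbp and Tef encode PAR bZIP factors that bind D-boxes, and they differed from each other. Dbp (chromosome 7 from 45705088 to 45710155, plus strand) was at 6.47, 7.90 and 9.41 RPKM at PND2 and at 24.3, 38.2 and 44.0 RPKM at 4 months. The ages were well apart, with replicate 1 the lowest at 4 months. Dbp rose by 2.12 ± 0.24 on the log2 scale (SE, limma adjusted p = 7.85e-04), and it passed under all 18 alternative settings. Its 3' end overlaps Sphk2 on the opposite strand, and on the exons free of it the fold between means was 4.35, against 4.48 on the whole gene.

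Tef (chromosome 15 from 81802421 to 81826861, plus strand) was at 28.4, 28.0 and 25.3 RPKM at PND2 and at 22.9, 32.7 and 30.6 RPKM at 4 months. It was the most abundant member per length at PND2 and did not separate the ages. The log2 fold change was 0.07 (95% confidence interval -0.28 to 0.41, limma adjusted p = 0.763). The ratio of Tef to Dbp was 4.39, 3.54 and 2.68 at PND2 and 0.945, 0.857 and 0.696 at 4 months, so Tef exceeded Dbp in every PND2 library and was below it in every library of 4 months. That log2 ratio differed by -2.07 (exact permutation p = 0.1, n = 3 per age).

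The order of levels per length changed with age. At PND2 Tef was first with a mean of 27.2 RPKM, clear of the range of the next gene, and was followed by Per1, Nr1d1, Nr1d2, Per2, Arntl and Clock, each overlapping its neighbour. Dbp at 7.93 RPKM, Per3 at 7.80 RPKM and Npas2 at 4.88 RPKM came last. At 4 months Nr1d1 was first at 115 RPKM, clear of Nr1d2 at 47.6 RPKM. Per1, Dbp, Tef, Arntl, Npas2, Clock, Per2 and Per3 followed in overlapping steps down to 7.36 RPKM. Nr1d1 rests in part on the exon shared with Thra: its mean on the other exons was 8.70 RPKM at PND2 and 106 RPKM at 4 months.

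**Figure D3:**
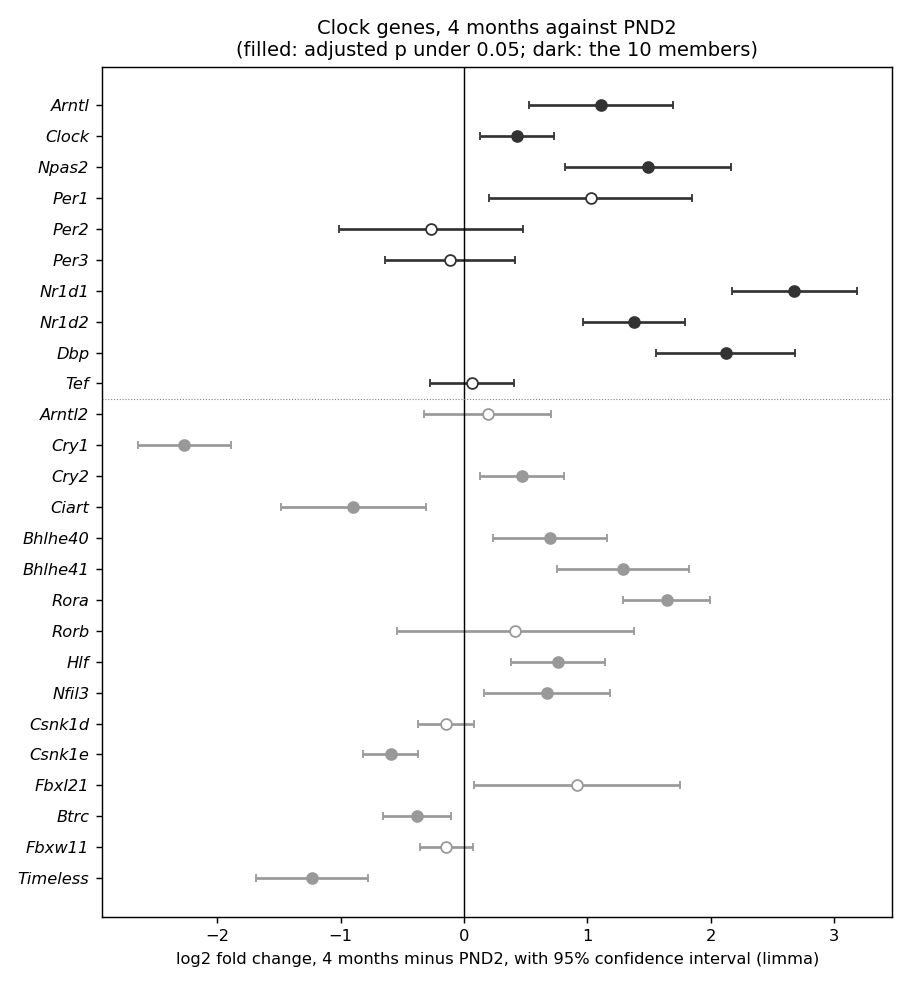
Log2 fold change of 4 months over PND2 (x axis) with 95% confidence intervals from limma, for the 10 members (dark) and 16 other clock genes (grey), filled where the adjusted p was under 0.05. Of the members 6 are filled to the right of 0 and 0 to the left, and of the other clock genes 6 are filled to the right and 5 to the left.

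Replicate 1 of 4 months stood apart from the other libraries of its age over many of these genes. A library was taken as apart for a gene when it lay more than 1.5 times above or below both others of its age, a rule chosen after the values were seen and used as a description. By it, 4 months replicate 1 was above for Arntl and Npas2, a direction met by 7.89% of all genes tested. It was below for Per1, Per2, Per3 and Dbp, a direction met by 4.59%. It was also the lowest of its age for Nr1d2 and Tef, and only for Clock and Nr1d1 was it in the middle. At a fold of 2 the members apart were Npas2 and Per1, and the share of all genes at that fold was not computed.

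By the same rule this library was apart for a few other genes of the loop. Over all genes tested 7.89% were above in it and 4.59% below. Among 16 other clock genes it was below for 2, Bhlhe40 and Bhlhe41, E-box-binding repressors. It was above for 1, Fbxl21, which was under 1.5 RPKM in every library. Whether these counts exceed the shares over all genes was not tested. Among 5 clock output genes it was below for Usp2, a deubiquitinase, Wee1, a mitotic kinase, and Tsc22d3. Usp2 was at 7.05 RPKM in that library against 14.6 and 15.5 RPKM in the others of 4 months. Hlf and Nampt, outputs of the same loop, were not apart. Arntl was highest in this library in all 20 of its exons, Npas2 in all 24 measured and Per1 was lowest in all 32 measured. Some exons of Npas2 and Per1 share bases. Exons of a gene in the same libraries repeat its gene value and are not independent of it.

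Markers of other cells also differed between the libraries of 4 months, and not only in replicate 1. The adipocyte sum was 1427 RPKM in replicate 2 against 344 and 326 RPKM in replicates 1 and 3. Replicate 1 had the highest smooth muscle sum, 27380 RPKM against 16360 and 19710 RPKM. It had the lowest cardiomyocyte sum, 5289 RPKM against 10360 and 7339 RPKM. Of 8 immediate early genes, which respond fast to cell stress and handling, 4 were highest of their age in it (Fos, Junb, Egr1 and Ier2) and 0 were lowest. Replicate 3 was highest for the other 4 (Fosb, Jun, Atf3 and Nr4a1), and replicate 2 was lowest for all 8. The sum of the 8 was 754.5, 554.7 and 762.2 RPKM in replicates 1 to 3. The part of these in the clock gene levels was not tested.

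**Figure D4:**
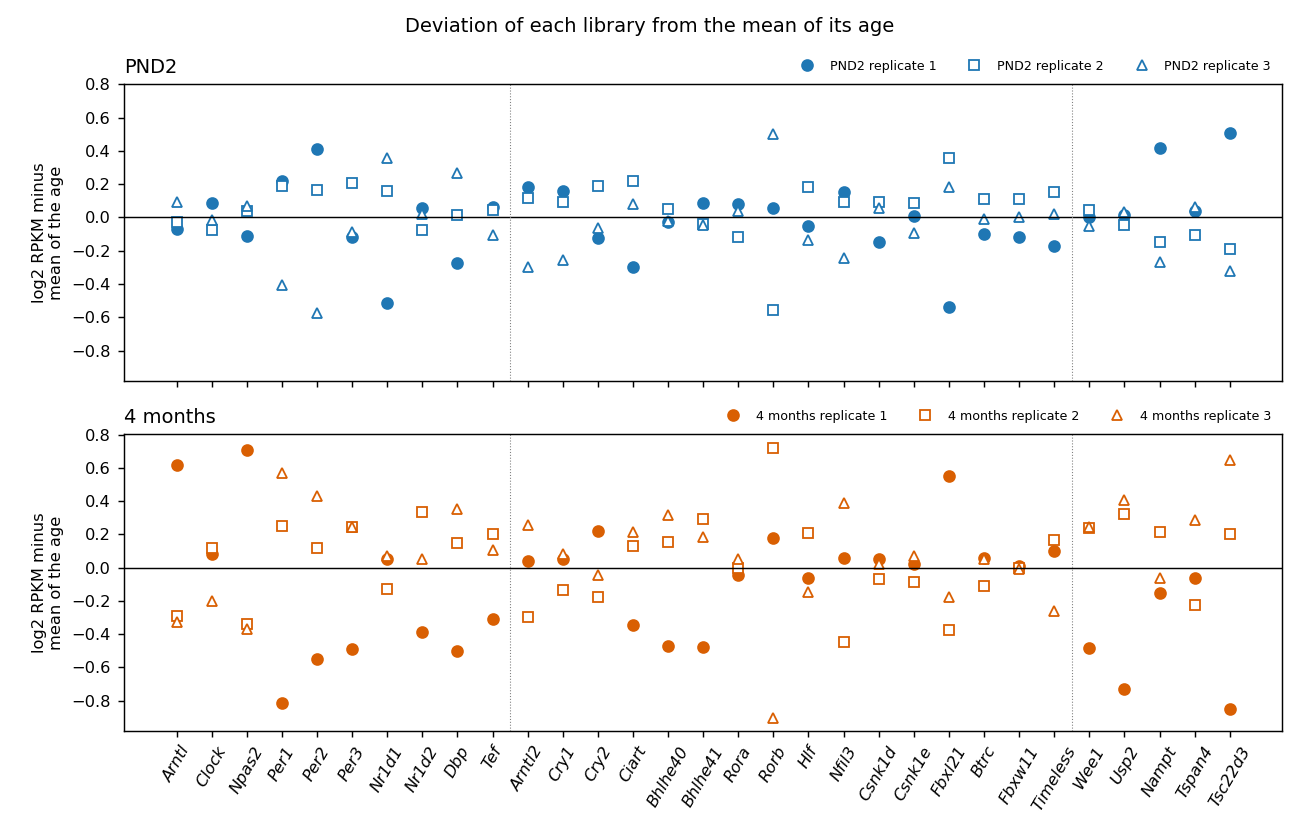
Log2 RPKM of each library minus the mean of its age (y axis) for the 10 members, 16 other clock genes and 5 clock output genes (x axis, lists divided by dotted lines), at PND2 (top) and 4 months (bottom), with replicate 1 filled. In 4 months replicate 1 the filled points of Arntl and Npas2 lie above 0 and those of Per1, Per2, Per3, Nr1d2, Dbp and Tef below 0.

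At PND2 fewer members stood apart. PND2 replicate 1 was below for Nr1d1 (7.35% of all genes tested were below in that library) and replicate 3 was below for Per1 and Per2 (5.30%). PND2 replicate 1 was highest of its age for Per2, at 18.4 RPKM against 15.5 RPKM in replicate 2. For Per1 it was level with replicate 2, at 21.7 and 21.3 RPKM. PND2 replicate 1 was also highest for 5 of 6 glucocorticoid-responsive genes (Fkbp5, Zbtb16, Sgk1, Klf9 and Errfi1) and lowest for Dusp1. The sum of the 6 was 129.5 RPKM in it against 87.6 and 94.8 RPKM. Fkbp5 was at 24.4 RPKM in it against 7.99 and 7.06 RPKM in replicates 2 and 3, and Zbtb16 at 8.04 RPKM against 1.31 and 1.84 RPKM. At 4 months, replicate 1 was lowest of its age for 4 of the 6 (Zbtb16, Sgk1, Klf9 and Errfi1) and highest for 2 (Fkbp5 and Dusp1). Their sum was 317.5 RPKM in it against 279.0 and 310.2 RPKM in replicates 2 and 3. The part of these genes in the period gene levels was not tested.

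Ratios across the arms of the loop showed the spread within 4 months directly. Arntl over Dbp was 1.63, 1.37 and 1.25 at PND2 and 1.52, 0.511 and 0.435 at 4 months. Replicate 1 of 4 months was at the level of PND2, and the ages overlapped (exact permutation p = 0.3, n = 3 per age). Npas2 over Dbp overlapped too, at 0.699, 0.635 and 0.543 against 0.935, 0.287 and 0.245 (exact permutation p = 0.4, n = 3 per age). Per3 over Arntl was 0.680, 0.825 and 0.620 at PND2 and 0.139, 0.434 and 0.444 at 4 months, apart between the ages. Clock over Dbp was apart as well, at 1.69, 1.24 and 1.08 against 0.608, 0.395 and 0.276 (exact permutation p = 0.1 for each, n = 3 per age).

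To describe which genes followed Arntl from library to library, Pearson's correlation with it was taken over the 6 libraries after the mean of each age was removed, which leaves 4 free values, among 10612 other protein-coding genes with a mean of at least 5 RPKM. Such correlations rest largely on 4 months replicate 1. Eif4b (0.998), Smarca2 (0.998), Tlk2 (0.996), Orc3 (0.996) and Id2 (0.996) were highest, and Npas2 came next at 0.995, rank 6. Wee1 (-0.995), Usp2 (-0.981), 4833439L19Rik (-0.98) and Yars2 (-0.978) were among the lowest, and Wee1 and Usp2 belong to the 5 clock output genes. Bhlhe40 (-0.973) and Tef (-0.965) were at ranks 10 and 14 from the lowest, Per1 (-0.939) at rank 45 and Per3 (-0.921) at rank 71. Among all the genes compared, 240 lay above 0.9 and 99 below -0.9. Tsc22d3 (-0.887) and Nr1d2 (-0.885) were at ranks 124 and 127 from the lowest. Per2 was at -0.773, Dbp at -0.755 and Cry2 at 0.708. The values of several other genes of the loop were weaker. Clock was at 0.371, Nr1d1 at 0.22, Cry1 at 0.0193, Nfil3 at 0.00687, Hlf at -0.253 and Nampt at -0.42.

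Dbp had a different set of nearest genes by the same measure. Col5a3 (0.995), St3gal4, Nip7, Smap2 and Nme2 (0.982) were highest and Phkg1 (-0.998), Prpf38a, Olfml1, Fam21 and Ift74 (-0.994) lowest. No clock gene was among them. Per3 was at 0.794 and Bhlhe40 at 0.856 with Dbp, and Arntl at -0.755. Weaker values were those of Nr1d1 (0.438), Per2 (0.248) and Hlf (-0.0237). Among all the genes compared, 112 lay above 0.9 and 175 below -0.9.

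The other genes of the loop went both ways. Of 16 other clock genes, all tested, 6 rose, 5 fell and 5 did not pass, and their log2 fold changes had a median of 0.30. With median scaling 7 rose and 3 fell, as Ciart and Btrc no longer passed and Fbxl21 did. Cry1, a cryptochrome repressor, had the lowest fold change. It was at 16.0, 15.2 and 11.97 RPKM at PND2 and at 2.99, 2.63 and 3.06 RPKM at 4 months. Its libraries of 4 months agreed closely, replicate 1 included, and Cry1 fell by 2.27 on the log2 scale (limma adjusted p = 1.3e-04). Cry2, the other cryptochrome, was at 11.97 ± 1.40 RPKM at PND2 and 16.7 ± 2.41 RPKM at 4 months (log2 fold change 0.47, limma adjusted p = 0.0398).

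Rora, an activator of Arntl through the ROR element, rose from 2.13 to 2.45 RPKM at PND2 to 7.19 to 7.68 RPKM at 4 months (log2 fold change 1.64, limma adjusted p = 3.44e-04). Bhlhe41 (1.29), Hlf (0.76), Bhlhe40 (0.70) and Nfil3 (0.68), the last a repressor at D-boxes, were the other log2 fold changes that passed upward. Timeless (-1.24), Ciart (-0.90), a repressor of the BMAL1 pair, Csnk1e (-0.60), a kinase of the period proteins, and Btrc (-0.38) passed downward. Arntl2, Rorb, Csnk1d, Fbxl21 and Fbxw11 did not pass.

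Leaving out 1 library at a time kept the calls of 6 of these 11 genes. Bhlhe40 was lost without any 1 library except 4 months replicate 1 (limma adjusted p 0.0643 to 0.093), and Nfil3 without any 1 except 4 months replicate 2 (0.0659 to 0.141). Btrc (0.074 to 0.133) and Ciart (0.0514 to 0.0934) were lost without any 1 except PND2 replicate 1. Cry2 was lost without replicate 1 or 3 of either age (0.0902 to 0.117).

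Of the 5 clock output genes, Nampt, which makes the precursor of NAD, rose (log2 fold change 1.61, limma adjusted p = 0.00107) and Wee1 fell (-1.17, limma adjusted p = 0.00457). Usp2, Tspan4 and Tsc22d3 did not pass. Wee1 was at 18.3, 18.9 and 17.7 RPKM at PND2 and at 5.79, 9.54 and 9.61 RPKM at 4 months. All 7 mitotic genes of a separate list also fell (median of the log2 fold changes -3.18), and the part of cell division in the Wee1 and Timeless values was not tested.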

How the data were processed

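Aortic valve RNA was sequenced from 3 pooled libraries at PND2 and 3 at 4 months. According to the study's methods and the submitters' processing notes, the authors filtered and trimmed paired reads, aligned them to mm10 with TopHat2 2.1.0 and counted them on Ensembl exons and genes with easyRNASeq in R 3.2.2. RPKM was deposited for genes and for exons. Use of strand in counting is not given in the sources used here, so values of overlapping genes are uncertain.

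Whole reads were recovered from RPKM, exonic length and library total (tolerance 0.01). Log2(RPKM + 0.1) of genes with at least 0.1 RPKM in 3 libraries was compared between ages with limma 3.58.1 in R 4.3.3 (eBayes with trend, 2-sided, Benjamini-Hochberg). Fold changes on this scale understate those of low genes. Ratios between members were compared by exact permutation, and exon values were described without a test. Alternatives were pseudocounts of 1 and 0.01, no filter, a minimum of 1 RPKM, no trend, an unequal-variance test, median and quantile scaling, a replicate block, a floor at 10 reads, voom on recovered reads, exons free of other genes, and each library left out in turn. Files were read in R with data.table (version 1.17.8) and in Python 3.11.15 with pandas 2.3.3, scipy 1.17.1 gave exact tests, figures were drawn with matplotlib 3.10.9 and numpy 2.4.6, and the limma step was tested on simulated data. Positions are those of mm10, and motifs were read from RefSeq windows of GRCm38.p6, with the ROR consensus narrowed to its full form after a looser one had been tried.

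The members and lists were chosen with earlier results of these data known. Every member was named; any gene of a list could be named, and for likeness the 5 highest and 5 lowest correlations with Arntl and with Dbp. The lists were other clock genes, clock outputs, glucocorticoid-responsive, immediate early and mitotic genes, and markers of valve interstitial, endothelial, cardiomyocyte, adipocyte, smooth muscle, erythroid and macrophage cells. A few genes are not reported here and were left out of lists and figures.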

Additional observations from a re-analysis of the deposited data

How the results depend on the processing

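Under the unequal-variance test per gene, 3408 genes passed in place of 9273, 1 member (Dbp) in place of 6 and 5 other clock genes in place of 11. Leaving out 1 library gave 6447 to 8688 genes, 5 to 6 members and 6 to 8 other clock genes, with 6 without PND2 replicate 3 and without 4 months replicate 3 and 7 without PND2 replicate 2 and without 4 months replicate 1. The remaining settings gave 5 to 7 members and 7 to 12 other clock genes, the 7 without a trend. At a fold of 2, chosen after the values were seen, 2 members in place of 6 were apart in 4 months replicate 1. No share of all genes was computed at that fold. Arntl, Npas2, Nr1d1 and Nr1d2 failed only the unequal-variance test, of 18 alternatives, Clock failed 7, and Per1 passed 3 (a minimum of 1 RPKM, without 4 months replicate 1, and voom). Without a trend the limma adjusted p of Clock was 0.0583. On exons that overlap no other gene, a setting chosen after the values were seen, the log2 ratio difference was -2.55 for Arntl to Nr1d1 and 2.29 for Nr1d1 to Nr1d2, in place of -1.57 and 1.31. No called member or other clock gene changed direction under these settings. Median scaling moved the split over all genes from 3810 higher and 5463 lower to 4601 and 4129, and the median log2 fold change from -0.14 to -0.02, with the same 6 members called. Same-numbered libraries of the ages did not deviate together (correlations 0.04, -0.06 and -0.16), so the numbers do not pair them. With a replicate block 7167 genes, 5 members (without Clock) and 8 other clock genes passed. With 3 pools per age and no collection times, a rhythm could not be measured.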

Other observations

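Immediate early genes, which respond to handling and stress as well as to growth signals, were higher at 4 months in 7 of 8 cases, with a median log2 fold change of 2.30. Atf3 was at 15.8, 9.49 and 6.87 RPKM at PND2 and at 133, 125 and 213 RPKM at 4 months, and Nr4a1 at 15.9, 19.6 and 13.8 against 170, 134 and 180 RPKM. Ier2 did not pass the test. The second killing step differed between the ages, and its part in these values was not tested. Of 6 glucocorticoid-responsive genes 3 rose (Klf9, Dusp1 and Errfi1) and 0 fell. Klf9 was at 20.0, 9.24 and 10.6 RPKM at PND2 and at 51.4, 69.95 and 61.6 RPKM at 4 months (log2 fold change 2.26, limma adjusted p = 0.00118).

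Of the marker lists, 5 of 5 endothelial genes and 4 of 8 cardiomyocyte genes fell while 1 cardiomyocyte gene rose, 5 of 5 smooth muscle, 6 of 7 adipocyte and 4 of 5 macrophage genes rose, and 0 of 4 erythroid genes passed, with 3 of them in the test. Of the 7 valve interstitial markers 1 rose and 3 fell.

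In RefSeq windows of other clock genes, Ciart held 3 E-boxes, Cry1 an E-box and a variant, Bhlhe41 an E-box and Cry2 a variant, with no match taken as a binding site.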
